A study of Bos taurus with 6 samples.

Results

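The genes described here serve the mitochondrial ribosome, protein import into mitochondria and mitochondrial transcription. They were chosen by name: every annotated symbol that starts with MRPL, MRPS, TOMM or TIMM, together with POLRMT, TFAM, TFB1M and TFB2M, where the row holds 1 symbol and not several joined ones. This gave 100 of 13683 annotated symbols. They comprise 45 genes of the large ribosomal subunit (MRPL), 29 of the small subunit (MRPS), 9 of outer membrane import (TOMM), 13 of inner membrane and intermembrane space import (TIMM) and 4 of mitochondrial transcription. A name start is not a function. TIMMDC1 assembles respiratory complex I, TOMM34 is a cytosolic co-chaperone, MRPS36 is now counted with the oxoglutarate dehydrogenase complex, and MRPS30 and MRPS18A sit in the large subunit.

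Mitochondria keep a small genome of their own, but the proteins that copy it into RNA, translate that RNA and bring in the other mitochondrial proteins are encoded in the nucleus and made in the cytosol. POLRMT is the single RNA polymerase of the organelle. TFAM packages mitochondrial DNA and bends its promoters, and TFB2M opens the DNA for POLRMT. The mitochondrial ribosome has a large subunit, where peptide bonds form, and a small subunit, where the messenger RNA is read. Preproteins cross the outer membrane through the translocase built around TOMM40 and the inner membrane through translocases built around TIMM23 and TIMM22. Cleavage embryos inherit their mitochondria from the oocyte and depend on them for ATP.

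Each of the 6 libraries was made from the polyA RNA of 1 bovine (Bos taurus) morula made by in vitro fertilization. The 3 control embryos were grown with 0.1% DMSO, the vehicle, and the 3 MAT2A-inhibited embryos, called treated here, with 20 µM FIDAS-5, which blocks MAT2A, the enzyme that makes the methyl donor S-adenosylmethionine. Exposure ran from 72 h after insemination, at the 8-16 cell stage, to 144 h, which is day 6, in mSOF medium with bovine serum albumin and 5% oxygen in both groups. The labels name DMSO for the controls only. They give no strain, parent or culture drop, so each p-value reflects variation among these single embryos and no more. Fragment depth recovered from the tables ran from 46400000 to 59900000 per library. Values are FPKM, which are scaled to transcript length, but how well they compare between genes was not tested. Differences are MAT2A-inhibited minus control means of log2(FPKM + 1), a scale that understates changes of low genes.

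The embryo markers POU5F1, NANOG, SOX2, GATA3, KRT8, KRT18 and CDX2 were all listed, with a summed level of 477.9 to 1226 FPKM in the controls and 465.2 to 806.1 in treated morulae. Single markers varied more between embryos. KRT8 was at 81.4, 4.49 and 400.5 FPKM in the controls and at 38.7, 109.5 and 229.9 in treated morulae. NANOG was at 20.3 FPKM in control 2 and at 4.58 or below elsewhere. The 9 cumulus or granulosa markers summed to 6.52 to 19.1 FPKM in the controls and 3.02 to 5.10 in treated morulae, with PTX3 at 0 in every library. The 4 sperm markers summed to 2.53 to 4.79 FPKM in the controls and 5.13 to 11.5 in treated morulae, with ODF1 at 0 throughout. TNP1 reached 5.56 FPKM in treated morula 1 and TNP2 6.43 FPKM in treated morula 3. Of the blood genes, HBA was at 63.1 to 132.4 FPKM over all libraries and HBB at or below 1.72. Y-linked transcripts summed to 57.3 and 116.4 FPKM in treated morulae 2 and 3 and to at most 0.193 in the other 4 libraries. The part of these in the results below was not tested.

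The question was whether blocking the supply of S-adenosylmethionine went with another level of these transcripts. The most separated genes lay at the head of mitochondrial transcription and import: POLRMT and TFAM were lower, and the channel gene TOMM40 higher, in all 3 treated morulae than in any control. None of them passed the test over all genes. The ribosomal genes as a group lay close to their control levels. FPKM is scaled to each library's own fragments. In a whole embryo, a smaller share of cells holding a transcript and less of it per cell cannot be told apart.

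Of 96 genes tested, 0 passed limma at an adjusted p of 0.05, where 0.0409% of the 7341 genes tested overall did (3 genes). At an unadjusted p below 0.05, 1 of the 96 was higher (1.04%), TOMM40, against a background of 3.68% of all tested genes. That threshold found 3 of the 96 lower (3.13%), POLRMT, TFAM and TIMM8A, against a background of 2.93%. These shares were close to or below those of the transcriptome, so the counts are no result about the set. The median difference was 0.083 over the 96 genes and 0.045 over all tested genes, with 65 of the 96 (67.7%) above 0 against 54.2% of all. With median-of-ratios scaling 55 of the 96 (57.3%) lay above 0, against 49.4% of all genes.

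Over all 96 genes tested, groups did not overlap in 4 that were higher (4.17%), against a background of 8.27%, and in 7 that were lower (7.29%), against a background of 5.16%. The higher genes were TOMM40, TIMM50, TIMM10 and MRPL43. The lower genes were POLRMT, TFAM, TIMM8A, TOMM6, MRPS18B, MRPS26 and MRPL57, the last of them with a 0.

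**Figure D1:**
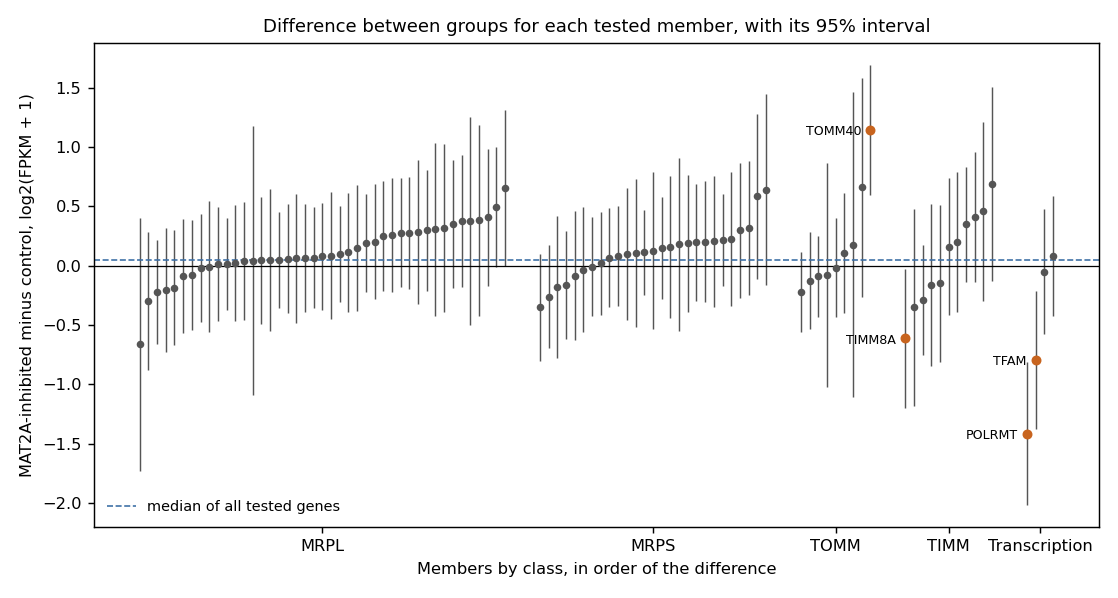
Difference between MAT2A-inhibited and control morulae on the log2(FPKM + 1) scale for each tested gene (points) with its 95% limma interval (bars), grouped by class along the x axis and ordered within each class; MRPL49 and MRPL57, which are listed at 0 in some library, are left out. The 4 genes with an unadjusted p below 0.05 are in orange and named, and most ribosomal genes sit near the dashed median of all tested genes.

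POLRMT (chromosome 7 of bosTau8, from 44850721 to 44864889) was at 15.6, 19.5 and 15.8 FPKM in controls 1 to 3 and at 6.28, 5.70 and 5.17 FPKM in treated morulae 1 to 3. Every treated embryo lay below every control, with a wide gap between the groups. The control mean was 16.9 ± 2.22 FPKM and the treated mean 5.72 ± 0.556 FPKM (SD, n = 3 each, exact two-sided permutation p = 0.1, the smallest that 3 against 3 can give). The control mean was thus 2.96 times the treated mean. The log2 difference was -1.41 ± 0.26 (SE; 95% interval -2.01 to -0.81), with a limma p of 0.0007 and an adjusted p of 0.342. By unadjusted p it ranked 15 among 7341 genes.

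The authors' deposited confidence bounds for POLRMT ran from 12.9 to 17.0 FPKM over the controls and from 4.82 to 8.08 FPKM over treated morulae. Each pair of bounds belongs to a single library, so the gap between them is no further test of the groups. In control 2 the FPKM of 19.5 stood above its own bounds of 12.9 to 15.9. The assembled locus began at 44850721 in control 1 and 44850953 in control 3, and at 44851398 in control 2 and all 3 treated libraries. Control 2, with the same locus as the treated libraries, was the highest of the 6 libraries. The treated morula without Y-linked transcripts, number 1, was at 6.28 FPKM, and set alone against the 3 controls it gave a log2 difference of -1.29.

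TFAM (chromosome 28, 46063092 to 46079834) was at 81.7, 77.2 and 57.0 FPKM in the controls, and at 50.7, 37.3 and 35.4 FPKM under FIDAS-5. The groups did not overlap, but control 3 and treated morula 1 were close. The means were 72.0 ± 13.2 and 41.1 ± 8.33 FPKM (SD, n = 3 each, exact permutation p = 0.1), with a log2 difference of -0.79 ± 0.25 (SE; 95% interval -1.37 to -0.21). The limma p was 0.0138 and the adjusted p 0.704. The 2 lowest values were those of the 2 libraries with Y-linked transcripts, and without both the difference was -0.48. The deposited bounds ran from 55.4 to 85.1 FPKM in the controls and from 34.8 to 53.0 FPKM in treated libraries.

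The 2 related TFB genes did not share this pattern of values. TFB2M, the partner of POLRMT in initiation, was at 75.0, 90.0 and 66.9 FPKM in the controls, and at 63.4, 89.7 and 71.7 FPKM under FIDAS-5. Its log2 difference was -0.05 (95% interval -0.58 to 0.48), and its sign turned when control 2 or treated morula 1 was left out. TFB1M, a methyltransferase that uses S-adenosylmethionine to modify the small ribosomal RNA, was at 30.0, 28.5 and 24.9 FPKM against 27.2, 31.4 and 29.6 FPKM. Its log2 difference was 0.08 (95% interval -0.43 to 0.59). The groups overlapped for both genes, more fully for TFB2M than for TFB1M. The intervals still allow changes of either sign.

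**Figure D2:**
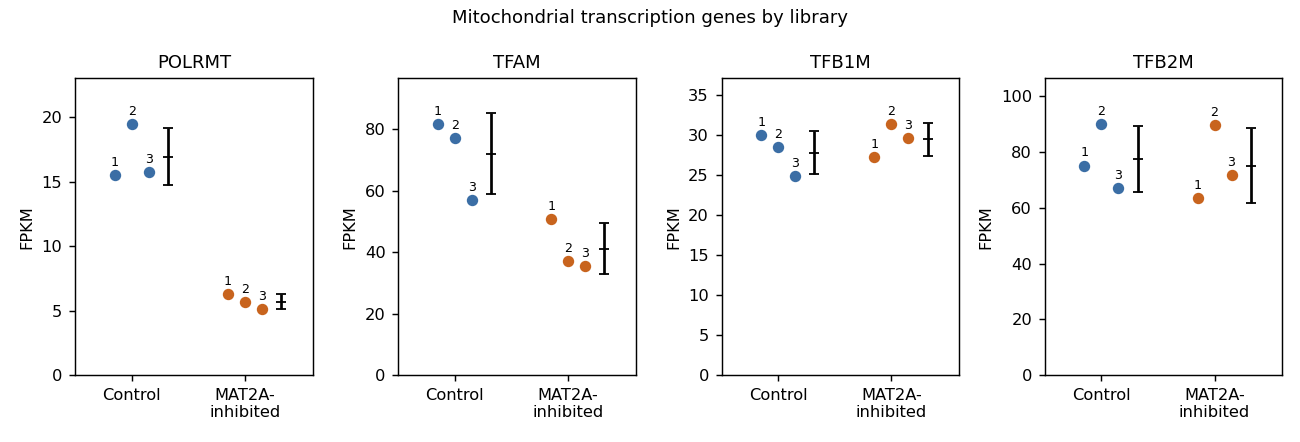
FPKM of the 4 mitochondrial transcription genes in each library (points, numbered by replicate) for control (blue) and MAT2A-inhibited (orange) morulae, with the mean and SD beside each group; each y axis starts at 0. POLRMT and TFAM separate the groups, while the ranges of TFB1M and TFB2M overlap.

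At the outer membrane, TOMM40, the channel that nearly all imported proteins pass, was at 9.71, 9.63 and 9.35 FPKM in the controls, and at 23.8, 23.3 and 20.1 FPKM under FIDAS-5 (chromosome 18, 53021416 to 53032808). The controls were nearly equal, and the lowest treated embryo stood far above the highest of them. The means were 9.56 ± 0.188 and 22.4 ± 2.0 FPKM (SD, n = 3 each, exact permutation p = 0.1), a ratio of 2.34. The log2 difference was 1.15 ± 0.24 (SE; 95% interval 0.60 to 1.69), with a limma p of 0.00145 and an adjusted p of 0.508. The deposited bounds ran from 7.58 to 10.5 FPKM in the controls and from 16.9 to 25.3 FPKM in treated libraries, and the FPKM lay outside its own bounds in 2 libraries of each group. Treated morula 1, without Y-linked transcripts, was the highest of the 6.

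The other parts of the outer membrane translocase were mostly steady. The presequence receptor TOMM20 was at 265.4 ± 40.7 FPKM in the controls and 260.5 ± 2.80 in treated morulae (SD, n = 3 each). The central receptor TOMM22 was at 232.9 ± 9.38 and 214.2 ± 25.5 FPKM. TOMM70A, the receptor for carrier proteins, was at 65.8, 71.9 and 89.3 FPKM in the controls, and at 100.5, 74.4 and 225.3 FPKM under FIDAS-5. Its log2 difference of 0.66 rested on treated morula 3, and without that library it was 0.20. The FPKM of TOMM70A lay outside its own deposited bounds in all 3 controls and in treated morula 3, where they were 160 to 170 FPKM.

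The small subunits that steady the channel had some of the highest FPKM of the set. TOMM6 was at 2115, 1988 and 2063 FPKM in the controls, and at 1858, 1875 and 1572 FPKM under FIDAS-5. These groups did not overlap, yet the means of 2055 ± 63.7 and 1768 ± 170.5 FPKM differed by only -0.22 on the log2 scale (limma adjusted p = 0.796). TOMM5 was at 1689 ± 150.2 and 1585 ± 109.2 FPKM, and TOMM7 at 1926 ± 551.6 and 2025 ± 172.1 FPKM (SD, n = 3 each). TOMM34 and TOMM40L, a lesser relative of TOMM40, were low, at 1.27 to 8.07 and 2.26 to 6.74 FPKM over the 6 libraries. Between the channel gene and its small partners the FPKM thus differed widely, with TOMM40 far below TOMM5, TOMM6 and TOMM7 in every library.

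In the inner membrane, the channel gene TIMM23 was at 324.9, 268.3 and 255.9 FPKM in the controls, and at 434.0, 295.2 and 243.9 FPKM under FIDAS-5, so the groups overlapped. TIMM50, its receptor for preproteins, was at 84.6, 84.8 and 65.7 FPKM against 90.9, 112.7 and 95.5 FPKM. All 3 treated values of TIMM50 lay above the controls, with a log2 difference of 0.35 (95% interval -0.14 to 0.83, limma adjusted p = 0.782) that was 0.23 without control 3. TIMM21, which links the complex to the outer membrane and to the respiratory chain, was at 19.2, 9.41 and 9.32 FPKM against 16.8, 18.2 and 25.4 FPKM, and control 1 lay within the treated range. TIMM22, the channel for carrier proteins, was at 44.4 ± 13.0 and 39.1 ± 6.18 FPKM (SD, n = 3 each).

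TIMM44, which holds the import motor to the channel, was at 32.3 and 36.2 FPKM in the first and second control and at 59.2, 30.6 and 24.5 FPKM under FIDAS-5. It was not tested, since in control 3 its row was merged with CTXN1. TIMM17A was not analysed here.

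The small chaperones of the intermembrane space carry hydrophobic proteins between the membranes. TIMM10 was at 110.8, 181.8 and 176.0 FPKM in the controls, and at 190.6, 201.0 and 218.5 FPKM under FIDAS-5. Its treated values all lay above the controls, with a log2 difference of 0.41 (95% interval -0.14 to 0.96, limma adjusted p = 0.779). Without control 1, the lowest library, it was 0.18. Its partner TIMM9 was at 59.4, 82.6 and 91.2 FPKM against 67.0, 125.5 and 139.2 FPKM, with morula 1 inside the control range and its difference at -0.19 without the 2 libraries with Y-linked transcripts. The FPKM of TIMM9 lay outside its own deposited bounds in every library. TIMM13 was at 301.3 ± 51.4 and 245.3 ± 33.0 FPKM, TIMM8B at 458.5 ± 125.9 and 519.2 ± 90.6 FPKM, and TIMM10B at 94.2 ± 31.9 and 73.6 ± 26.2 FPKM (SD, n = 3 each). TIMMDC1 was at 19.6 ± 5.74 and 17.2 ± 3.08 FPKM.

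The 2 genes on chromosome X had lower values in every treated library with a row for them than in any control, though TIMM17B has no test. TIMM8A, the partner of TIMM13 (55167849 to 55170570), was at 744.1, 897.8 and 925.0 FPKM in the controls, and at 735.1, 604.3 and 390.9 FPKM under FIDAS-5. The groups did not overlap, but treated morula 1 was within 10 FPKM of control 1. The deposited bounds did overlap, at 713.9 to 765.4 FPKM over the controls and 312.8 to 735.1 FPKM over the treated libraries, and the FPKM lay outside its own bounds in all 3 controls and 1 treated library. The log2 difference was -0.61 ± 0.25 (SE; 95% interval -1.19 to -0.03; limma p = 0.0429, adjusted p = 0.750, exact permutation p = 0.1). Without treated morula 3 it was -0.35, and without both libraries with Y-linked transcripts, which held the lowest values, it was -0.21. TIMM17B (92088201 to 92092175), a subunit of the TIMM23 channel, was at 298.6, 249.8 and 363.9 FPKM in the controls, and at 218.6 and 167.0 FPKM in treated morulae 1 and 3. In morula 2 its row was merged with SLC35A2, so it was not tested. The FPKM of TIMM17B lay outside its own bounds in control 3 and treated morula 3. Treated morula 1 lacked Y-linked transcripts, as the controls did. It had TIMM8A at 735.1 FPKM against a lowest control of 744.1, and TIMM17B at 218.6 FPKM against a lowest control of 249.8. The part of embryo sex in the lower values of both genes was not tested.

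**Figure D3:**
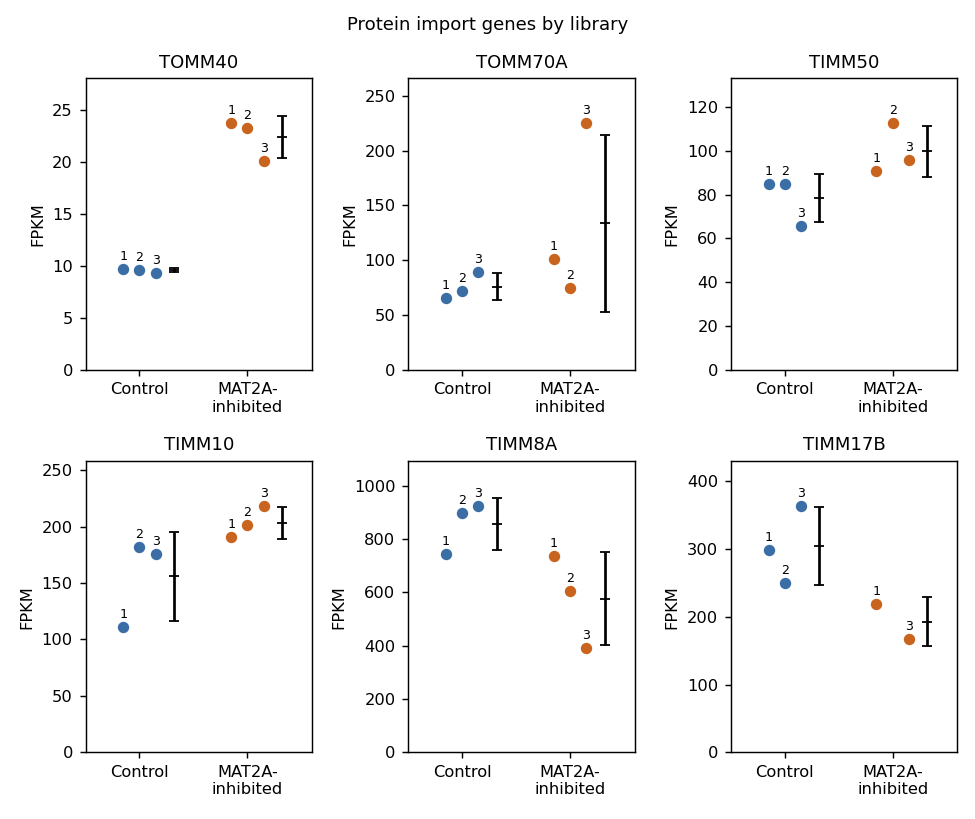
FPKM of 6 protein import genes in each library (points, numbered by replicate) for control (blue) and MAT2A-inhibited (orange) morulae, with the mean and SD beside each group; each y axis starts at 0, and TIMM17B has no value in MAT2A-inhibited morula 2. TOMM40 separates the groups widely, TOMM70A is carried by 1 treated library, and the X-linked TIMM8A and TIMM17B are lowest in MAT2A-inhibited morula 3.

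Of the genes named MRPL or MRPS, called mitochondrial ribosomal genes here, 72 were tested, 45 MRPL and 27 MRPS. MRPS36, MRPS30 and MRPS18A are counted by name among the 27. Their differences were small, with a median of 0.098, and 0 had an unadjusted p below 0.05 (background 3.68% higher and 2.93% lower). Above 0 lay 54 (75%) and below 0 lay 18, against 54.2% of all tested genes above 0. The share above 0 was alike in 79 nuclear-encoded respiratory chain subunits (72.2%, median 0.143) and 78 cytosolic ribosomal protein genes (71.8%, median 0.125). Of the 72, 6 (8.33%) differed by more than 0.5 on the log2 scale, MRPL49 and MRPL57 with their values of 0 among them. That share was 25.5% for all tested genes and 21.6% for those with a mean of at least 10 FPKM. It was 10.1% for the respiratory chain subunits and 3.85% for the cytosolic ribosomal protein genes. Levels varied little between embryos as well. Within groups the median SD was 0.233 on the log2 scale, against 0.399 for all tested genes and 0.349 for tested genes with a mean of at least 10 FPKM. The same median was 0.258 for 79 nuclear-encoded respiratory chain subunits and 0.165 for 78 cytosolic ribosomal protein genes, and these differences were not tested.

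In the large subunit, MRPL43 was at 98.5, 67.6 and 79.1 FPKM in the controls, and at 101.7, 119.8 and 121.8 FPKM under FIDAS-5. Of the 72 ribosomal genes it was the 1 (1.39%, background 8.27%) whose treated values all lay above the controls, by a small margin. Its log2 difference was 0.49 (95% interval -0.01 to 0.997, limma adjusted p = 0.750). MRPL53 was at 75.9, 80.5 and 139.5 FPKM against 155.0, 124.8 and 173.6 FPKM, with control 3 inside the treated range. MRPL35, MRPL11 and MRPL16 followed by p, with differences of 0.41, 0.38 and 0.35. Without both libraries with Y-linked transcripts MRPL35 was at -0.13, without control 2 MRPL11 was at 0.15, and without treated morula 1 MRPL16 was at 0.21. MRPL43, MRPL53 and these 3 had the smallest p among MRPL genes above 0, and their adjusted p ran from 0.750 to 0.801.

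Below 0, MRPL51 had the largest difference among MRPL genes without a 0, at -0.66, and it rested on 1 control. It was at 94.4, 343.9 and 112.5 FPKM in the controls, and at 91.2, 105.7 and 94.6 FPKM under FIDAS-5. Without control 2 the difference was -0.09. MRPL15 was at 170.0 ± 11.4 and 146.5 ± 20.9 FPKM (SD, n = 3 each), a difference of -0.22. MRPL23 was at 287.2, 172.8 and 188.8 FPKM against 141.5, 193.6 and 183.4 FPKM. The value of control 1 added a second row of 117.6 FPKM on chromosome 10, within AGGF1, to the row of 169.7 FPKM on chromosome 29. With the higher row alone the difference of MRPL23 moved from -0.30 to -0.05.

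Both genes listed at 0 in some library were in the large subunit. MRPL49 was at 24.2, 0 and 36.9 FPKM in the controls, and at 0, 19.4 and 0 FPKM under FIDAS-5. In each of the 3 libraries where MRPL49 was listed at 0, its neighbour SYVN1, whose row overlaps its end, was listed at 0 as well, and in the other 3 both had values. MRPL57 was at 46.2, 46.2 and 34.2 FPKM in the controls, and at 0, 23.4 and 31.1 FPKM under FIDAS-5. In treated morula 1, where MRPL57 was listed at 0, the adjoining SKA3 and ZDHHC20 were joined in 1 row, also listed at 0. A 0 in these tables can be a failed estimate, so no fold change is given for either gene.

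Among tested genes named MRPS, groups did not overlap in 2 of 27, both lower (7.41%, against a background of 5.16%). None was higher (0%, background 8.27%), and counts this small are no result about the class. MRPS18B was at 276.1, 266.2 and 267.2 FPKM in the controls, and at 172.3, 219.9 and 249.1 FPKM under FIDAS-5, a log2 difference of -0.35 (95% interval -0.80 to 0.10, limma adjusted p = 0.775). MRPS26 was at 181.7, 169.4 and 168.0 FPKM against 167.2, 126.0 and 142.0 FPKM, a difference of -0.26, and treated morula 1 was within 1 FPKM of control 3. Without treated morula 1 the difference of MRPS18B was -0.20, and without both libraries with Y-linked transcripts that of MRPS26 was -0.05. Next by p among the 7 MRPS genes below 0 were MRPS23, MRPS10 and MRPS35, at -0.16, -0.18 and -0.08. Of these, MRPS10 and MRPS35 changed sign without treated morula 1.

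Above 0, MRPS36 was at 179.3, 113.3 and 200.5 FPKM in the controls, and at 185.3, 227.5 and 328.7 FPKM under FIDAS-5, with overlapping groups and a difference of 0.59. That difference was 0.34 without control 2, 0.36 without treated morula 3 and 0.21 without both libraries with Y-linked transcripts. MRPS30 was at 46.7, 40.9 and 79.9 FPKM against 123.8, 67.6 and 70.7 FPKM, with a difference of 0.64 and control 3 inside the treated range, and without treated morula 1 the difference was 0.36. MRPS34, MRPS24 and MRPS15 had differences of 0.32, 0.22 and 0.30. Without control 2 MRPS34 was at 0.19, and without both libraries with Y-linked transcripts MRPS24 was at 0.09 and MRPS15 at -0.13. Adjusted p over these 5 MRPS genes ran from 0.766 to 0.815. MRPS16 and MRPS28 were not tested, because each was merged with a neighbour in some library.

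By library, the ribosomal genes were shifted in 2 of the 3 treated embryos. Set against each gene's control mean, the median over 70 ribosomal genes without a 0 was 0.24 in treated morula 2, 0.16 in morula 3 and -0.01 in morula 1. The controls were at 0.03, -0.03 and 0.01. Each control is part of the mean it is set against, which draws its values toward 0, so control and treated medians are not on equal terms. Of the 72 ribosomal genes 29 had their highest value in morula 2 and 19 in morula 3, against 7 in morula 1 and 5 to 7 in each control. Over all tested genes the 3 treated medians were alike, at 0.060, 0.043 and 0.036 in morulae 1 to 3. Morulae 2 and 3 are the libraries with Y-linked transcripts, and without both the median of the ribosomal genes was -0.01 with 34 of 71 above 0. The part of embryo sex in this shift was not tested. The shift was small: summed MRPL levels were 9745, 9689 and 10399 FPKM in the controls and 9111, 12063 and 10846 FPKM under FIDAS-5, so the groups overlapped.

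**Figure D4:**
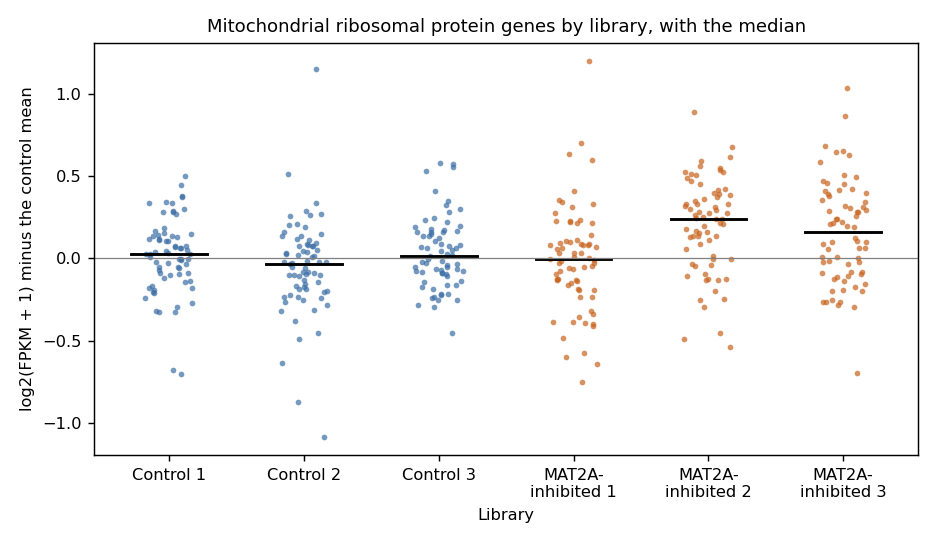
Each point is 1 of 70 mitochondrial ribosomal protein genes without a 0, drawn as its log2(FPKM + 1) minus its mean over the controls, with libraries along the x axis and the median as a black bar. The medians of MAT2A-inhibited morulae 2 and 3 lie above 0, at 0.24 and 0.16, and that of morula 1 at -0.01.

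Genes of the same ribosomal subunit had unequal transcript levels. Among MRPL genes without a 0, mean FPKM over the 6 libraries ran from 14.4 for MRPL4 to 830.1 for MRPL33, and the median over all 45 was 160.0. Over the MRPS genes tested it ran from 12.2 for MRPS9 to 1779 for MRPS18C, with a median of 150.3. MRPS18C was at 1779 ± 192.7 FPKM in the controls and 1779 ± 307.2 in treated morulae (SD, n = 3 each). Levels differed little from embryo to embryo: among 94 tested genes without a 0, the highest library was a median of 1.59 times the lowest, against 2.40 for all tested genes without a 0. These were not matched for level: the median level was 146 FPKM over the 96 tested genes and 12.8 over all. The median SD within groups was 0.237 on the log2 scale for the 96, 0.258 for respiratory chain subunits and 0.165 for cytosolic ribosomal protein genes. The steadiest was MRPL34, at 1.17 times, and the most variable was TOMM34, at 6.38 times. Many ribosomal protein genes have processed copies, so levels of single genes may hold or lack reads shared with such copies.

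**Figure D5:**
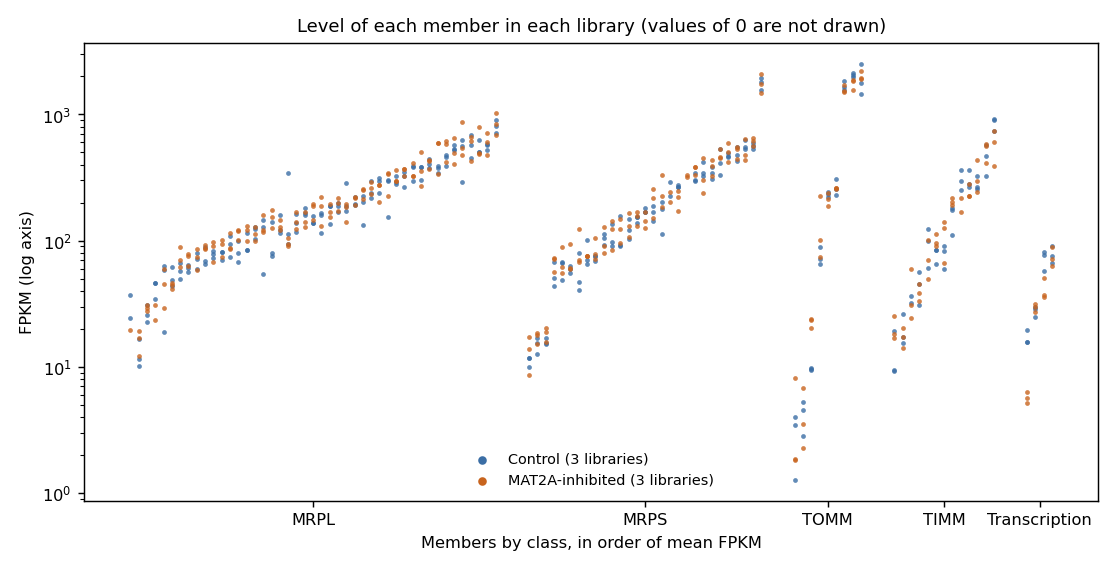
FPKM of each gene in each library (points, log axis) by class and in order of mean level, for control (blue) and MAT2A-inhibited (orange) morulae. Ribosomal genes spread from mean levels of 12.2 to 1779 FPKM while the 6 libraries of most genes stay close, and TOMM40 and POLRMT are the genes whose colours part most clearly.

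The 100 genes lay on 28 chromosomes. Only 1 pair lay within 10000 bases of each other: MRPL46 and MRPS11, of different subunits, are neighbours on chromosome 21, with MRPS11 starting 96 bases after the end of MRPL46. MRPL46 was at 70.2, 81.6 and 80.8 FPKM in the controls, and at 74.5, 101.2 and 94.0 FPKM under FIDAS-5. MRPS11 was at 75.1, 75.3 and 68.5 FPKM against 78.2, 105.4 and 71.7 FPKM. Both were highest in treated morula 2, and the groups overlapped for both.

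Partner genes outside the name rule gave few differences, and 0 passed over all genes. Of 6 further ribosomal subunits 3 were above 0, and GADD45GIP1 and ICT1 had the smallest p, with differences of 0.46 and 0.17 and no unadjusted p below 0.05. Of 20 ribosome assembly genes tested 1 was higher and 1 lower (5% each) at an unadjusted p below 0.05, against a background of 3.68% higher and 2.93% lower. In lists this short a single gene moves the share by several percent. NGRN was at 32.6, 29.2 and 34.1 FPKM in the controls, and at 45.7, 43.9 and 51.7 FPKM under FIDAS-5. GTPBP10, a GTPase of large subunit assembly, was at 62.3, 71.0 and 75.7 FPKM against 47.5, 44.6 and 55.6 FPKM. Their groups did not overlap, with differences of 0.54 and -0.49 (limma adjusted p = 0.750 for both).

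Of 10 mitochondrial translation factors tested, 2 were higher at an unadjusted p below 0.05 (20%, background 3.68%) and 0 lower (background 2.93%). GFM1, the elongation factor that moves the ribosome along the messenger, was at 19.6, 20.8 and 17.3 FPKM in the controls, and at 30.7, 68.2 and 101.9 FPKM under FIDAS-5. The controls were close together and the treated values spread widely above them, with a log2 difference of 1.59 ± 0.42 (SE, limma adjusted p = 0.698). TUFM, which brings transfer RNA to the ribosome, was at 60.3, 42.8 and 51.1 FPKM against 72.7, 67.0 and 82.6 FPKM, a difference of 0.53. Values of both groups stayed apart.

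Of 19 import partners 1 was higher and 1 lower at that threshold (5.26% each), near the background of 3.68% and 2.93%. DNAJC15, a relative of the import motor's co-chaperone, was at 118.6, 91.3 and 81.8 FPKM in the controls, and at 137.1, 146.2 and 169.0 FPKM under FIDAS-5, a difference of 0.64. PMPCB, the catalytic subunit of the peptidase that removes presequences, was at 153.1, 147.4 and 124.4 FPKM against 103.1, 99.9 and 86.3 FPKM, a difference of -0.55. Groups did not overlap for either gene (limma adjusted p = 0.704 and 0.715).

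Of 14 genes of mitochondrial DNA maintenance and RNA processing, 1 was higher at that threshold (7.14%, background 3.68%) and 0 lower (background 2.93%). PNPT1, an RNA-degrading enzyme of the organelle, was at 52.8, 43.5 and 40.9 FPKM in the controls, and at 64.5, 77.7 and 60.5 FPKM under FIDAS-5. DGUOK, a kinase that supplies nucleotides, was at 71.1, 67.7 and 68.1 FPKM against 60.6, 43.6 and 53.2 FPKM. Neither pair of groups overlapped, with differences of 0.55 and -0.40 (limma adjusted p = 0.750 and 0.773).

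Of 6 regulators of nuclear genes for mitochondria tested, 1 was higher at that threshold (16.7%, background 3.68%) and 0 lower (background 2.93%). YY1, a zinc finger factor, was at 99.0, 86.6 and 103.1 FPKM in the controls, and at 123.1, 125.8 and 176.6 FPKM under FIDAS-5, a difference of 0.54 (limma adjusted p = 0.750). MYC was at 0.501, 8.02 and 1.66 FPKM against 1.02, 0.442 and 0.491 FPKM, low in all but control 2. Transcripts of the mitochondrial genome itself, the products of POLRMT, were not analysed here.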

How the data were processed

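The submitters' processing notes name TopHat2 2.0.14, Cufflinks 2.2.1 and the cattle build bosTau8. For each morula the authors deposited a gene table with FPKM and its confidence bounds, also FPKM, per the file headers. Annotation and settings: not given in the sources used here. FPKM of rows with the same symbol were added up. Of 13295 symbols present in every library, 77 were dropped for a status other than OK. The 7341 genes that reached 1 FPKM in 3 or more libraries were tested by limma 3.58.1 (R 4.3.3) after log2(FPKM + 1), two-sided, with a trend of variance on mean and Benjamini-Hochberg adjustment at 0.05. Exact permutation tests used scipy 1.17.1. The fit was tested on simulated data. Of 593 rows of the 100 genes, 165 (27.8%) have an FPKM outside their own bounds.

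Depth came from the bounds of short loci without annotation, which move in steps of 1 fragment. Of these, the bounds above 0 and up to their median were used. The depth chosen was the one at which most of them gave a whole number, 99.8% to 99.9% within 0.05. That share is thus no separate check of the depth. Counts per gene were not recovered. Starts in the files count from 0, so 1 was added, and printed coordinates span all libraries. Among values above 0, no pair of libraries had the same FPKM for a gene (0%, compared exactly).

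Genes and lists were chosen with earlier results of these data known. Named are the transcription genes, set import genes, up to 5 genes per class and direction by p, the highest and lowest of each class, genes with groups that do not overlap, genes with a 0, X-linked genes and the 2 smallest p of each list; MRPL4, MRPL34, MRPL46 and MRPS11 were added after their values were seen. Alternatives were other scalings, pseudocount, filters, weights, a replicate block and left-out libraries or genes.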

Additional observations from a re-analysis of the deposited data

How the results depend on the processing

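Of the 96 tested genes, 0 passed, and likewise 0 of those tested in each of 20 alternatives. POLRMT kept its sign in all 20, from -1.55 to -1.29, as did TFAM (-0.95 to -0.48), TOMM40 (1.09 to 1.23) and, in the 19 that tested it, TIMM8A (-0.81 to -0.21). Groups did not overlap for any of these genes, so leaving out libraries could not turn the sign. Their kept signs are thus no further support. Genes passing overall numbered 3, but 1 with no filter, with a mean of at least 5 FPKM and with the replicate block, 4 with array weights, 0 without genes with a 0 or both libraries with Y-linked transcripts, 0 to 8 with 1 library left out, and 3 in the other alternatives. The 0 came without any 1 treated library, the 8 without control 3. The median over the tested genes was -0.0139 without the 2 libraries with Y-linked transcripts and 0.0691 to 0.131 with 1 library left out. Unadjusted p below 0.05 was found for 4 to 8 genes then, 8 without MAT2A-inhibited morula 1.

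Whether same-numbered libraries pair was not settled. Deviations from group means correlated at 0.053, 0.098 and 0.19 for numbers 1 to 3, and at -0.211 to 0.105 for the other pairs. Controls 1 and 3 correlated best with the treated morula of their own number, and control 2 with treated morula 1 (0.105). With the replicate block 0 of the 96 genes passed.

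Signs turned, without a call, for 18 named genes. Without both Y-linked libraries MRPL33 was at -0.233, MRPL35 -0.13, MRPS15 -0.131, MRPS9 -0.335, TFB1M -0.0231, TIMM22 0.0768, TIMM9 -0.19 and TIMMDC1 0.0743. MRPL33 was at -0.00024 with median-of-ratios scaling, TOMM20 at 0.0481 with quantile normalization, and MRPS18C at 0.057 and TOMM34 at -0.0689 with array weights. With 1 library left out, MRPL33 ran from -0.087 to 0.204, MRPS10 from -0.43 to 0.0251, MRPS18C from -0.134 to 0.115, MRPS35 from -0.276 to 0.052, MRPS9 from -0.026 to 0.438, TFB2M from -0.184 to 0.0648, TIMM22 from -0.383 to 0.0454, TIMM23 from -0.0689 to 0.345, TIMM8B from -0.0234 to 0.387, TIMMDC1 from -0.308 to 0.056, TOMM20 from -0.109 to 0.102, TOMM34 from -0.383 to 0.463, TOMM40L from -0.417 to 0.208 and TOMM7 from -0.0751 to 0.324. The cause was not tested. With 1 treated library left, its spread is taken to be that of the controls. One alternative, without genes that share a merged locus, was chosen after seeing the data.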

Other observations

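Some genes of the mitochondrial ribosome had values only in rows that join 2 genes, which cannot be divided between them. MRPL17 was joined with LOC506989 in every library, at 240.5, 308.2 and 388.7 FPKM in the controls and 267.3, 299.8 and 291.0 FPKM under FIDAS-5. MRPS16 had its own row only in treated morulae 2 and 3, at 322.0 and 332.0 FPKM. It was joined with CFAP70 in control 1 and with DNAJC9 in controls 2 and 3 and treated morula 1, at 297.4 to 498.9 FPKM. MRPS28 had its own row in 4 libraries, at 201.7 to 289.5 FPKM, and was joined with TPD52 in control 1 and treated morula 1, at 298.2 and 206.5 FPKM.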
